A study of Mus musculus with 36 samples.

Results

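Gpr84, Dmpk, Dmwd, Gprc5c, Tmem178 and Kcnj2 are 6 of the 29883 genes counted in mouse macrophages and glioma cells that were given myelin debris. They were chosen by name, with earlier results of these libraries known: Gpr84, Dmpk and Dmwd for their large falls in macrophages 24 h after myelin, and Gprc5c, Tmem178 and Kcnj2 for lower levels in macrophages grown with tumour cells. Those differences are therefore given as values without a test. Tests are given only for contrasts that the choice did not use.

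The study asked how macrophages and glioblastoma cells act on each other, and this experiment followed both cell types after myelin debris was added. Macrophages were derived from bone marrow, and the sorted macrophages of the protocol carried the red fluorescent protein dTomato. The tumour cells were a single line, labelled PDG-Ink4a Recurrent, from a mouse glioma model in which platelet-derived growth factor B is expressed from Nestin-positive progenitors that lack Ink4a/Arf. Each cell type was grown alone or in co-culture with the other and sequenced as a control (0 h) or 6 h or 24 h after myelin debris was added, which gave 12 groups of 3 libraries, 36 in all. The 0 h libraries had no myelin, and nothing states how long these controls were kept. Neither a second tumour line nor an inert debris control was part of the 12 groups. The labels number the libraries of each group 1 to 3 without saying that they come from separate cultures or animals, so p-values measure the spread between these libraries, which may be technical.

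Gpr84 is a G protein-coupled receptor on macrophages, microglia and neutrophils that responds to medium-chain fatty acids and is induced by inflammatory stimuli. Dmpk encodes the serine/threonine kinase whose repeat expansion causes myotonic dystrophy; it is best known in muscle. Its close neighbour Dmwd encodes a WD-repeat protein related to Wdr20, a partner of the deubiquitinases Usp12 and Usp46. Gprc5c is an orphan receptor of the retinoic acid-inducible GPRC5 family. Tmem178 is a membrane protein of the endoplasmic reticulum that restrains calcium signalling during osteoclast formation, and Kcnj2 encodes Kir2.1, an inward rectifier potassium channel that holds the resting membrane potential and is long known from macrophages.

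In the mm10 build used by the submitters, Gpr84 (ENSMUSG00000063234) lies on the minus strand of chromosome 15 from 103308235 to 103310612. Dmwd (ENSMUSG00000030410) lies on the plus strand of chromosome 7 from 19076227 to 19082776. Dmpk (ENSMUSG00000030409) follows it on the same strand from 19083849 to 19093821, so that 1072 bases separate the end of Dmwd from the start of Dmpk. Gprc5c (ENSMUSG00000051043) and Kcnj2 (ENSMUSG00000041695) are both on the plus strand of chromosome 11, from 114851152 to 114872617 and from 111066164 to 111076821. Tmem178 (ENSMUSG00000024245) is on the plus strand of chromosome 17, from 80944632 to 81001816.

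The sequences just before the starts of the 3 genes that were chosen together for their 24 h levels are shown to compare their promoters. They come from RefSeq on GRCm38.p6, 5′ to 3′ on the gene's strand, and stop where an annotated exon begins. The stretches are chr7:19075950-19076199 (plus strand) for Dmwd, chr7:19083608-19083848 (plus strand) for Dmpk and chr15:103310613-103310688 (minus strand) for Gpr84. Capitals mark matches, on either strand, to CCAAT, to GGGCGG, or to GGG followed after any 5 bases by CC.
Dmwd: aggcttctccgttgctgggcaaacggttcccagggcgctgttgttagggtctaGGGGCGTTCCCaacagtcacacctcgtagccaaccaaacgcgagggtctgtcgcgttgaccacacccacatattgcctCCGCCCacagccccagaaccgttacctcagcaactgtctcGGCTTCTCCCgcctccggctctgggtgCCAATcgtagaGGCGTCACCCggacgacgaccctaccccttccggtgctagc
Dmpk: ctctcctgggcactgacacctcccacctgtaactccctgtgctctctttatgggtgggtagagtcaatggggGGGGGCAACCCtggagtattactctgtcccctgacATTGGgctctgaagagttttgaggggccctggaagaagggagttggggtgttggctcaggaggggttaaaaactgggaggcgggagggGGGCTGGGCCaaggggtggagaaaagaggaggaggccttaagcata
Gpr84: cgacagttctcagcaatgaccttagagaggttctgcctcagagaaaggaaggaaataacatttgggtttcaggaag

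The 250 bases before each RefSeq start were searched on both strands. The windows of Gpr84 and Dmpk held annotated exon bases of their own gene, so only 76 and 241 bases of them are printed. Matches and base composition refer to the whole windows. The first motifs were the CCAAT box, the GGGCGG box and a loose NF-kB pattern of GGG followed after any 5 bases by CC, whose matches can overlap those of the others. The ETS motif was written as GGAAGT and the remaining 5 were the TATA box (TATAAA), the E-box (CACGTG), the AP-1 site (TGANTCA), the CRE (TGACGTCA) and a MEF2-like pattern (TATTTATA). Dmwd and Dmpk each held 1 CCAAT, found in 33.8% of 32851 windows of the same length. The NF-kB pattern matched 4 times in Dmwd, 3 times in Dmpk and not in Gpr84, and 45.8% of all windows held it. GGGCGG was in Dmwd alone of the 3 (32.7% of windows), and GGAAGT in Gpr84 alone, outside the stretch printed (19.7%). None of the last 5 motifs, held by 12.4%, 6.02%, 6.75%, 1.55% and 1.56% of windows in the order given, was found in the 3. Dmwd had 62.4% G and C with 20 CpG, Dmpk 58.4% with 1 CpG and Gpr84 46.0% with 3, against medians of 52.4% and 6 over all windows. No motif of this search was thus shared by the 3 windows. These matches are letters in a window and say nothing of which factor binds there.

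Levels are given as CPM, the usual count relative to library size, with library sizes scaled by TMM (trimmed mean of M-values) factors within each cell type; macrophage and tumour cell values were scaled separately. Library totals ran from 7911378 to 15319104 counts, with a median of 12262573. Libraries numbered 1 stood apart: the single feature CT010467.1 took 4.08 to 17.4% of counts in those of macrophages, against 0.391 to 1.22% in numbers 2 and 3. The macrophage markers summed to 12700 to 20000 CPM in macrophage libraries. The tumour cell markers summed to 15400 to 25000 CPM in tumour cell libraries, although Sox10, Bcan, Ptprz1 or Ncan, markers on that list, were at 0 in all 3 libraries of some of those groups. Of the 6 genes, all passed the filter on low counts in macrophages (13165 genes tested), and Gpr84, Dmpk, Dmwd and Kcnj2 passed it in tumour cells (13603).

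Gpr84, the fatty acid receptor, was at 2.89, 14.0 and 16.0 CPM in libraries 1, 2 and 3 of macrophages alone at 0 h. It was at 2.59, 14.4 and 7.86 CPM at 6 h and at 0.201, 1.63 and 0.911 CPM at 24 h, where the counts behind these values were 2, 23 and 11. All 24 h libraries lay below all 0 h libraries, while the 6 h and 0 h libraries overlapped. In co-culture Gpr84 stood at 9.35, 23.2 and 16.4 CPM at 0 h, at 7.49, 11.7 and 12.6 CPM at 6 h and at 1.53, 3.59 and 2.27 CPM at 24 h. Again the 24 h libraries were below all others of that culture. The group means at 24 h were 12.0-fold lower than at 0 h in macrophages alone (11.0 ± 7.07 against 0.915 ± 0.716 CPM, SD, n = 3) and 6.61-fold lower in co-culture (16.3 ± 6.93 against 2.47 ± 1.04 CPM). Library number 1 was the lowest of its group for Gpr84 in 6 of 6 macrophage groups, with numbers 2 and 3 averaging 1.62 to 6.34 times its level, and in 6 of 6 tumour cell groups. It was also the lowest for Dmpk and for Dmwd in 3 of 3 groups of macrophages alone, with numbers 2 and 3 averaging up to 8.85 and 2.48 times its level. Of all genes tested, 16.9% were lowest in number 1 in those 3 groups.

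Dmpk, the myotonic dystrophy kinase, was measured at 5.48, 20.4 and 17.2 CPM in macrophages alone at 0 h and at 6.54, 18.8 and 10.6 CPM at 6 h. At 24 h it was at 0.1, 1.28 and 0.497 CPM, from 1, 18 and 6 counts. The 0 h and 6 h libraries overlapped, and all 24 h libraries lay below both. In co-culture the values were 8.61, 12.6 and 7.71 CPM at 0 h, 7.68, 9.29 and 7.43 CPM at 6 h and 2.89, 2.47 and 3.22 CPM at 24 h. The 24 h group means were 23.0-fold lower than at 0 h in macrophages alone (14.4 ± 7.86 against 0.625 ± 0.599 CPM) and 3.38-fold lower in co-culture (9.65 ± 2.61 against 2.86 ± 0.376 CPM). The low group of macrophages alone was also below every library of the co-culture at the same time.

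Dmwd, the WD-repeat gene upstream of Dmpk, was at 6.2, 15.6 and 12.8 CPM in macrophages alone at 0 h and at 2.89, 9.31 and 5.05 CPM at 6 h. At 24 h it was at 0.401, 1.07 and 0.662 CPM, from 4, 15 and 8 counts. In co-culture it stood at 8.82, 12.8 and 11.4 CPM at 0 h, at 9.22, 9.14 and 6.67 CPM at 6 h and at 7.4, 5.0 and 4.71 CPM at 24 h. The 24 h and 0 h libraries did not overlap in either culture, and in co-culture the 24 h and 6 h libraries did. Group means at 24 h were 16.2-fold below 0 h in macrophages alone (11.5 ± 4.81 against 0.71 ± 0.335 CPM) and 1.93-fold below in co-culture (11.0 ± 2.03 against 5.7 ± 1.48 CPM).

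**Figure D1:**
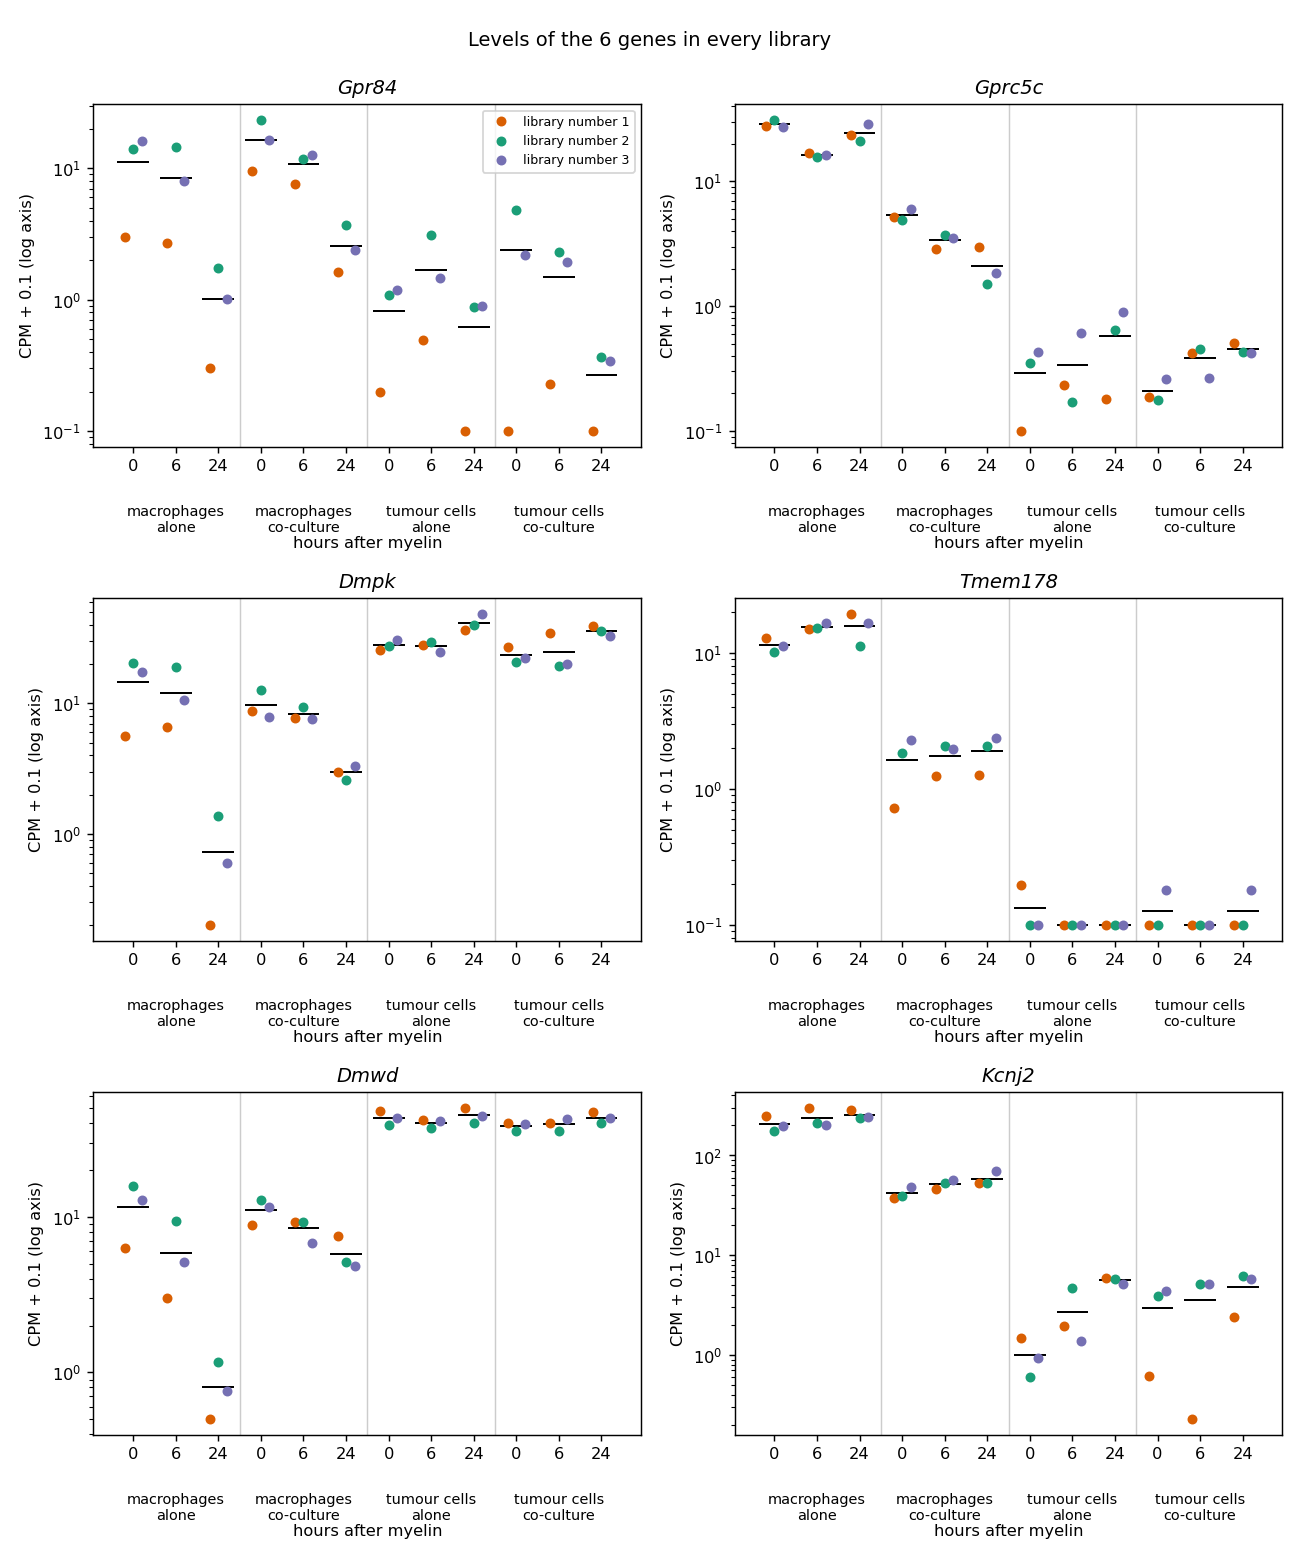
Level of each gene in every macrophage and tumour cell library, as CPM + 0.1 on a log axis, against hours after myelin. Each point is 1 library coloured by its number and each line the mean of 3; Gpr84, Dmpk and Dmwd are lowest in macrophages alone at 24 h among macrophage groups, and Gprc5c, Tmem178 and Kcnj2 are lower in macrophages in co-culture than in macrophages alone at each time.

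In edgeR's fit over the 18 macrophage libraries, the 24 h against 0 h difference in macrophages alone was -3.53 ± 0.73 (log2 ± SE) for Gpr84, -4.42 ± 0.59 for Dmpk and -3.97 ± 0.46 for Dmwd. These were the 8th, 4th and 5th lowest of 13165 genes. In co-culture the same difference was -2.71 ± 0.63, -1.76 ± 0.49 and -0.96 ± 0.36, at ranks 10, 78 and 351. In that comparison Gpr84 was thus among the lowest genes in both cultures, and Dmpk and Dmwd mainly in macrophages alone. The background of genes called lower at an adjusted p under 0.05 was 7.61% in macrophages alone and 6.02% in co-culture, and since the genes were picked on these differences nothing is read from it. The difference between the cultures in this change was 0.82 ± 0.98 for Gpr84, 2.66 ± 0.78 for Dmpk and 3.02 ± 0.60 for Dmwd, less negative in co-culture. Leaving out library 2 of macrophages alone at 24 h moved Dmpk to -5.5. The 24 h and 6 h differences use the same 0 h libraries.

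**Figure D2:**
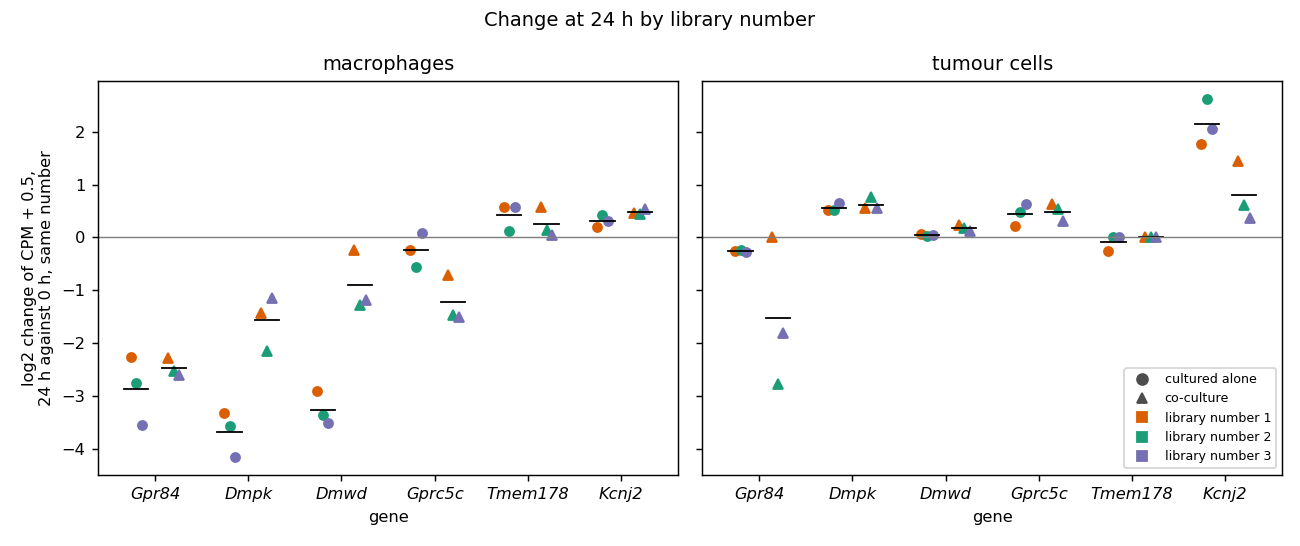
Difference at 24 h against 0 h between libraries of the same number and culture, as log2 of CPM + 0.5, for the 6 genes in macrophages (left) and tumour cells (right). Circles are cells alone and triangles co-culture, lines are means of 3; in macrophages all 6 points of Gpr84, Dmpk and Dmwd are below 0, from -4.15 for Dmpk alone to -0.24 for Dmwd in co-culture.

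At 6 h in macrophages alone, the mean of Dmwd was lower than at 0 h, at 5.75 against 11.5 CPM. The fitted difference was -0.97 ± 0.36 on the log2 scale, and the change was below 0 in 3 of 3 library numbers. The 6 h and 0 h libraries of Dmwd overlapped (2.89 to 9.31 against 6.2 to 15.6 CPM). The differences of Gpr84 and Dmpk at 6 h were -0.39 ± 0.57 and -0.26 ± 0.43, smaller than their errors. In co-culture the 6 h differences were -0.62 ± 0.56 for Gpr84, -0.25 ± 0.45 for Dmpk and -0.41 ± 0.35 for Dmwd. Against the midpoint of the 0 h and 24 h levels on the log2 scale, the 6 h level of macrophages alone stood higher by 1.37 ± 0.54 for Gpr84, 1.95 ± 0.42 for Dmpk and 1.01 ± 0.35 for Dmwd. In co-culture it stood at 0.73 ± 0.50, 0.63 ± 0.39 and 0.07 ± 0.31. These values use the libraries on which the genes were chosen and have no test.

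Between the cultures, the 3 genes were compared at 6 h, which the choice did not use. Gpr84 was 0.30 ± 0.57 higher in co-culture on the log2 scale (adjusted p = 0.793), Dmpk was at -0.59 ± 0.44 (0.46) and Dmwd at 0.48 ± 0.37 (0.473), so that none of the 3 was called beside 9.94% of all genes. The direction was not shared by all library numbers for any of them. The differences of co-culture from macrophages alone at 0 h were 0.54 ± 0.56 for Gpr84, -0.60 ± 0.44 for Dmpk and -0.09 ± 0.35 for Dmwd. At 24 h they were 1.36 ± 0.80, 2.06 ± 0.65 and 2.93 ± 0.48, values without a test since they come from libraries used in the choice. The higher Dmwd level of co-culture was thus a matter of the 24 h libraries, with no such gap at 0 h. Without library 2 of macrophages alone at 24 h the 24 h values were 3.13 for Dmpk and 3.36 for Dmwd.

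Tumour cells held more Dmpk and Dmwd than macrophages did, and tumour cell markers were higher in the co-culture macrophage libraries than in those of macrophages alone. The summed tumour cell markers were 43.1 to 133 CPM in macrophages alone and 290 to 911 CPM in co-culture, with Bcan, Ptprz1 and Ncan at 0 in all macrophage libraries. As a share of the level in the tumour cells of the same culture and time, this was 3.84 to 5.06% in co-culture at 24 h and 0.223 to 0.63% in macrophages alone at the 3 times. Such a share of the tumour cell level of Dmpk amounted to 1.38 to 1.81 CPM at 24 h and left 0.836 to 1.84 CPM, which overlapped the 0.1 to 1.28 CPM of macrophages alone. For Dmwd it amounted to 1.67 to 2.19 CPM and left 3.03 to 5.2 CPM, above the 0.401 to 1.07 CPM of macrophages alone in every library. For Gpr84 it was at most 0.00852 CPM and left 1.53 to 3.58 CPM. After this subtraction the libraries of the cultures did not overlap for Dmwd and did for Dmpk. The marker share can misstate what is carried: the same calculation from macrophage markers put 34.0 CPM of Kcnj2 into library 3 of tumour cells alone at 24 h, where 5.0 CPM were measured, and 2.08 CPM of Tmem178, where 0 were. How much of the co-culture Dmpk and Dmwd is tumour cell RNA therefore cannot be given from these shares. In bulk libraries, fewer cells of a type and less RNA per cell cannot be told apart.

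**Figure D3:**
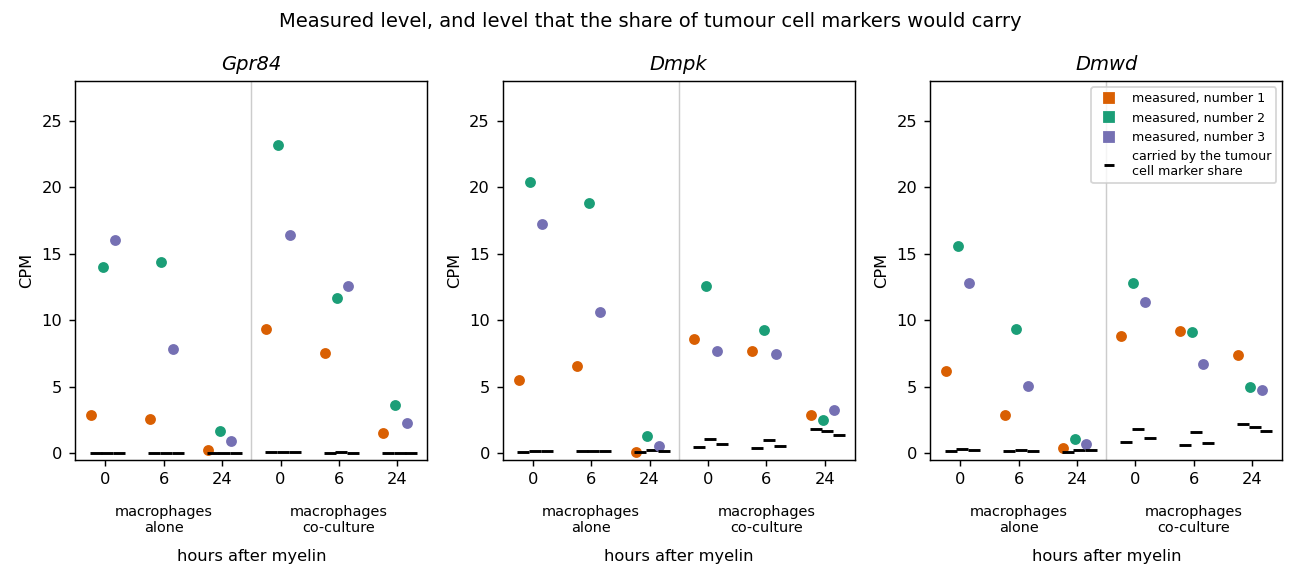
Measured CPM of Gpr84, Dmpk and Dmwd in each macrophage library (points, coloured by library number) and the CPM that the library's share of tumour cell markers would bring from the tumour cells (dashes). At 24 h in co-culture the dashes reach 1.38 to 1.81 CPM for Dmpk and 1.67 to 2.19 CPM for Dmwd, and lie near 0 for Gpr84.

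Neutrophils also express Gpr84, and a list of 8 neutrophil genes was lower at 24 h than at 0 h in every library number. Unlike those of Gpr84, its 0 h and 24 h libraries overlapped in both cultures. Their summed level was 8.51, 33.3 and 12.0 CPM in macrophages alone at 0 h, 11.9, 37.2 and 50.5 CPM at 6 h and 1.7, 10.7 and 7.12 CPM at 24 h. In co-culture it was 7.04, 26.0 and 33.8 CPM at 0 h, 5.09, 20.2 and 29.4 CPM at 6 h and 2.26, 7.75 and 6.35 CPM at 24 h. At 6 h the list and Gpr84 went apart in libraries 1 and 3 of macrophages alone. Gpr84 was at 2.59 and 7.86 CPM there, against 2.89 and 16.0 CPM at 0 h. Of these 8 genes, Ly6g was at 0 in every macrophage group and Retnlg in some of them, while the other members of the list were detected in each group. The part of these cells in the Gpr84 level was not tested.

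Dmpk and Dmwd lie end to end on the same strand, and the sources used here do not give how the counting treated strand and reads between such neighbours. Their counts did not keep 1 ratio. Dmpk counts divided by Dmwd counts were 0.884, 1.31 and 1.35 in macrophages alone at 0 h, 2.26, 2.02 and 2.1 at 6 h and 0.25, 1.2 and 0.75 at 24 h. In co-culture macrophages the ratios were 0.976, 0.983 and 0.679, then 0.833, 1.02 and 1.11, then 0.39, 0.493 and 0.683. At 6 h all ratios of macrophages alone were above all of those in co-culture (2.13 ± 0.124 against 0.988 ± 0.142, SD, n = 3). An exact two-sided permutation test gave p = 0.1, the smallest that 3 against 3 allows, and 0.167 after adjustment over 5 ratio comparisons. In tumour cells the ratio was 0.644 ± 0.1 at 0 h and 0.935 ± 0.183 at 24 h alone (exact permutation p = 0.1, adjusted 0.167), and 0.603 ± 0.0545 and 0.828 ± 0.069 in co-culture (exact permutation p = 0.1, adjusted 0.167). At 6 h against 0 h in tumour cells the exact p was 0.7 alone and 1.0 in co-culture.

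**Figure D4:**
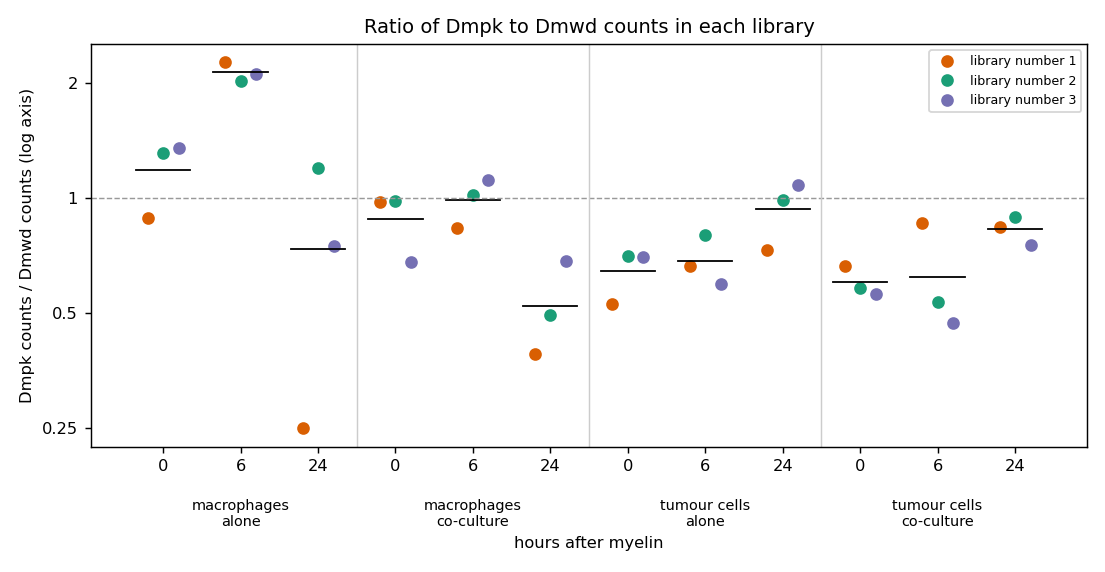
Dmpk counts divided by Dmwd counts in each library, on a log axis, against hours after myelin in macrophages and tumour cells alone and in co-culture. Points are libraries coloured by number and lines group means; macrophages alone at 6 h, at 2.02 to 2.26, hold the highest ratios, and 0.25 in macrophages alone at 24 h rests on 1 Dmpk count.

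The low 24 h level was not shared by the other genes of the region that could be tested. Within 100 kb of Dmpk and Dmwd, 9 other genes were tested in macrophages, and 0 of them were called in any of the 7 comparisons of time and culture, with 0.0556 the lowest adjusted p. Of all genes, 15.2% and 11.4% were called at 24 h alone and in co-culture, 2.15% and 0.213% at 6 h, and 13.7%, 9.94% and 28% between cultures at 0, 6 and 24 h. Their 24 h differences ran from -0.24 to 0.56 in macrophages alone and from -0.31 to 0.62 in co-culture. Sympk, a polyadenylation factor at 159 CPM, was at -0.18 ± 0.09 in macrophages alone, Fbxo46 at 0.09 ± 0.16 and Irf2bp1 at 0.00 ± 0.14. Six5, a homeobox gene that starts 772 bases after Dmpk, went from 0.251 CPM at 0 h to 0.0276 CPM at 24 h in macrophages alone and was too low to test. Rsph6a, 1779 bases before Dmwd, had a mean of 0.026 CPM over the macrophage libraries.

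**Figure D5:**
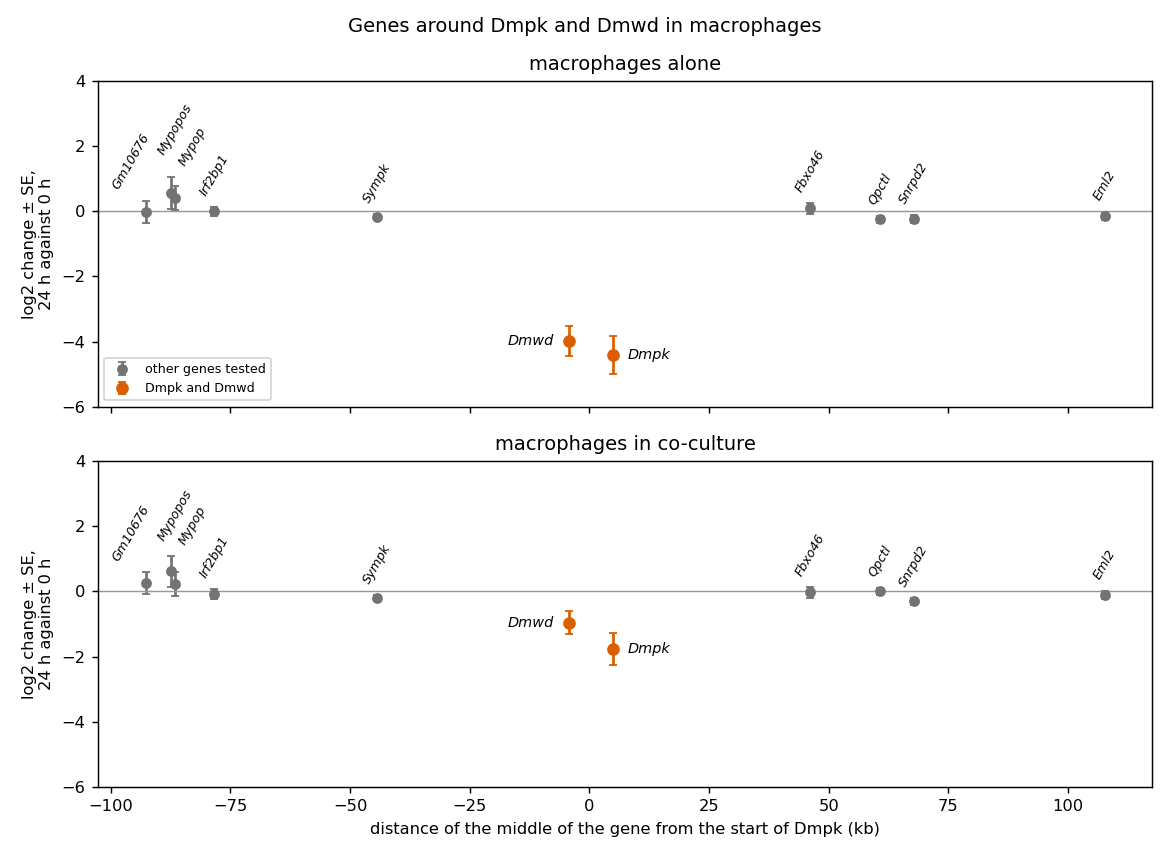
Fitted log2 difference at 24 h against 0 h (± SE) of the tested genes around Dmpk and Dmwd, in macrophages alone and in co-culture, plotted by distance in kb from the start of Dmpk. Dmwd and Dmpk stand at -3.97 and -4.42 in macrophages alone, while the 9 others lie between -0.24 and 0.56.

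Around Gpr84, 6 genes were tested and 3 were called in some comparison, each in a different one. These were Zfp385a at 24 h alone, Itga5 at 24 h in co-culture and Cbx5 between cultures at 24 h. In those comparisons 15.2%, 11.4% and 28% of all genes were called. Zfp385a, 3282 bases away, rose by 0.47 ± 0.13 at 24 h in macrophages alone (adjusted p = 0.0222), opposite in sign to Gpr84. The antisense gene Gm49482 overlaps Gpr84 and was at 0.0448 CPM in macrophages alone at 0 h; without strand its reads and those of Gpr84 cannot be told apart. Around Gprc5c, 4 genes were tested. Of these, the leukocyte receptors Cd300a and Cd300lb fell in co-culture at all 3 times, by 0.89, 0.79 and 0.92 and by 0.77, 0.77 and 0.81 on the log2 scale. Of all genes, 6.02%, 4.12% and 13.7% were called lower in co-culture at 0, 6 and 24 h. Kcnj16, a related channel gene 38195 bases from Kcnj2, was at 0.311 CPM and not tested.

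Gprc5c, the orphan receptor, was at 27.6, 30.8 and 26.9 CPM in macrophages alone at 0 h, at 16.6, 15.4 and 16.0 CPM at 6 h and at 23.3, 20.7 and 28.6 CPM at 24 h. In co-culture it was at 5.04, 4.78 and 5.84 CPM at 0 h, at 2.78, 3.58 and 3.44 CPM at 6 h and at 2.89, 1.41 and 1.73 CPM at 24 h. The cultures did not overlap at any time, and library number 1 did not stand apart. Co-culture means were 5.44-fold lower at 0 h (28.4 ± 2.08 against 5.22 ± 0.553 CPM), 4.89-fold lower at 6 h and 12.0-fold lower at 24 h (24.2 ± 4.03 against 2.01 ± 0.779 CPM). In macrophages alone the level was lowest at 6 h and the 24 h libraries lay above those of 6 h without overlap; in co-culture the 24 h mean was the lowest.

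Tmem178, the calcium restraint of osteoclast precursors, stood at 12.8, 10.1 and 11.1 CPM in macrophages alone at 0 h, at 14.8, 15.1 and 16.5 CPM at 6 h and at 19.2, 11.1 and 16.6 CPM at 24 h. In co-culture it stood at 0.63, 1.74 and 2.19 CPM, then at 1.15, 1.97 and 1.86 CPM, then at 1.17, 1.97 and 2.27 CPM. The co-culture level was low and near constant over time. Its means were 7.45-fold, 9.31-fold and 8.67-fold lower than in macrophages alone at 0, 6 and 24 h, without overlap.

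Kcnj2, the Kir2.1 channel, was the most abundant of the 6 in macrophages. Alone they held 250, 177 and 198 CPM at 0 h, 299, 209 and 202 CPM at 6 h and 286, 237 and 245 CPM at 24 h. In co-culture they held 37.8, 38.7 and 48.0 CPM, then 46.5, 53.2 and 56.7 CPM, then 52.7, 53.0 and 70.2 CPM. Co-culture means were 5.02-fold, 4.54-fold and 4.37-fold lower at 0, 6 and 24 h, again without overlap.

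In the same fit, the difference of co-culture from macrophages alone was -2.44 ± 0.18, -2.27 ± 0.18 and -3.61 ± 0.20 for Gprc5c at 0, 6 and 24 h on the log2 scale. It was -2.84 ± 0.31, -3.19 ± 0.31 and -3.09 ± 0.30 for Tmem178, and -2.32 ± 0.18, -2.18 ± 0.17 and -2.13 ± 0.17 for Kcnj2. At 0 h, before any myelin, the 3 genes were 14th, 6th and 21st lowest of 13165. The share of genes called lower in co-culture was 6.02%, 4.12% and 13.7% at 0, 6 and 24 h, and since these 3 genes were picked on this contrast nothing is read from it. The 3 were near 0 in tumour cells or far below their macrophage level there, so that at 24 h the tumour cell share of a co-culture library would carry at most 0.236 CPM of Kcnj2.

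The change over time in these 3 genes, averaged over both cultures, did not enter their choice and was tested, as a contrast added after the data were seen. It draws on the macrophage libraries used in the choice, with both cultures weighted alike. Its p-values therefore do not come from separate libraries. Gprc5c fell by 0.75 ± 0.13 on the log2 scale at 6 h (adjusted p = 0.0028) and by 0.82 ± 0.13 at 24 h (adjusted p = 0.000337), lower in 3 of 3 numbers at both times. By culture the 24 h difference was -1.40 ± 0.21 in co-culture and -0.24 ± 0.16 in macrophages alone, where library number 3 was at 0.09, so the 24 h mean rests mainly on the co-culture. The difference between the cultures was -1.17 ± 0.26, a value without a test. At 6 h the values were -0.67 ± 0.20 and -0.83 ± 0.16, near each other. Over the alternatives its adjusted p reached 0.00918 at 6 h and 0.00178 at 24 h. Kcnj2 rose by 0.40 ± 0.12 at 24 h (adjusted p = 0.0216), higher in 3 of 3 numbers, and at 6 h was at 0.26 ± 0.12 (0.211). The Kcnj2 call at 24 h was lost when any 1 of 5 libraries was left out, with adjusted p-values of 0.0599, 0.0558 and 0.0629 without co-culture libraries 1 or 2 at 0 h or 3 at 24 h, and 0.0601 and 0.0667 without libraries of macrophages alone 2 at 0 h or 1 at 24 h. Tmem178 was not called, at 0.28 ± 0.22 at 6 h (adjusted p = 0.481) and 0.34 ± 0.22 at 24 h (0.269). So 1 of the 3 genes was called at 6 h, beside 8.52% of all genes, and 2 of 3 at 24 h, beside 27.4%.

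Per kb of annotated exon, Kcnj2 was also the highest of the 6 in macrophages alone at 0 h, at a level of 38.3 CPM per kb. Tmem178 followed at 6.68, Gpr84 at 6.36, Gprc5c at 5.41, Dmwd at 4.51 and Dmpk at 3.32 CPM per kb. At 24 h in macrophages alone, Dmpk, Dmwd and Gpr84 were at 0.144, 0.278 and 0.53 CPM per kb. In co-culture at 0 h, Tmem178 and Gprc5c had the lowest levels, at 0.897 and 0.996 CPM per kb. In tumour cells alone at 0 h the order was different, with Dmwd at 17.0 and Dmpk at 6.41 CPM per kb and Gpr84, Kcnj2, Gprc5c and Tmem178 at 0.419, 0.166, 0.0369 and 0.0194 CPM per kb.

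In tumour cells Dmpk was at 25.4, 27.5 and 30.3 CPM alone at 0 h, at 27.8, 29.6 and 24.7 CPM at 6 h and at 36.6, 39.6 and 48.3 CPM at 24 h. In co-culture it was at 26.7, 20.7 and 22.1 CPM, then at 34.6, 19.2 and 20.0 CPM, then at 39.4, 35.6 and 32.5 CPM. Dmpk at 24 h was thus above its 0 h level in all libraries of both cultures, the reverse of macrophages. The difference was 0.58 ± 0.19 alone (unadjusted p = 0.00823, adjusted p = 0.0648 by edgeR) and 0.63 ± 0.19 in co-culture (unadjusted 0.0049, adjusted 0.149), neither called. With the library number as a block both passed, at adjusted p-values of 0.027 and 0.0424. Alone it also passed with DESeq2 (0.0332) and in a fit of only the groups compared (0.0389). Dmwd was between 35.6 and 50.1 CPM in all 18 tumour cell libraries, with group means of 38.4 to 44.9 CPM. Its 24 h differences were 0.05 ± 0.11 alone (adjusted p = 0.814) and 0.18 ± 0.11 in co-culture (0.476).

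Kcnj2 in tumour cells alone was at 1.38, 0.496 and 0.83 CPM at 0 h, at 1.85, 4.63 and 1.27 CPM at 6 h and at 5.85, 5.64 and 5.0 CPM at 24 h. The 24 h difference of 2.61 ± 0.94 was not called by edgeR (unadjusted p = 0.014, adjusted p = 0.0878). It passed with the library number as a block, at 2.70 (adjusted p = 0.0235), with DESeq2 (0.026) and with only the groups compared (0.00999). Macrophage markers moved with it in libraries 2 and 3, where they summed to 273 and 366 CPM at 0 h and to 1430 and 1810 CPM at 24 h. In library 1 these markers were at 14.5 and 15.8 CPM while Kcnj2 was at 1.38 and 5.85 CPM. In co-culture Kcnj2 was at 0.518, 3.79 and 4.25 CPM at 0 h and 2.28, 6.06 and 5.65 CPM at 24 h, a difference of 0.71 ± 0.85 (adjusted p = 0.753).

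Gpr84 in tumour cells ranged from 0 to 4.73 CPM and was lowest in library number 1, where the macrophage markers were also lowest, at 14.5 to 25.8 CPM against 273 to 1810 CPM in numbers 2 and 3. A count of 0 in library 1 at 24 h allowed up to 0.244 CPM alone and 0.245 CPM in co-culture. Its 24 h differences were -0.47 ± 1.33 alone (adjusted p = 0.85) and -3.65 ± 1.45 in co-culture (adjusted p = 0.278; blocking on library number gave 0.00317). Whether these reads came from macrophages was not tested. Gprc5c was at 0 to 0.797 CPM and Tmem178 had 0 or 1 count per tumour cell library. Of the 4 genes tested in tumour cells, 0 were called in any of the 7 comparisons by the edgeR fit over all 18 tumour cell libraries without a block. Of all genes, 10.5% were called at 24 h in cells alone and 0.787% in co-culture, 0.00735% and 0.0147% at 6 h, and 0%, 0% and 0.0809% between cultures at 0, 6 and 24 h. At an unadjusted p under 0.05 the 24 h calls were Dmpk and Kcnj2 in cells alone, and Dmpk and Gpr84 (0.0238) in co-culture.

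Ordered by mean level over the 12 groups, neighbouring Gpr84 groups all overlapped. For Dmpk, tumour cells in co-culture at 24 h stood clear of the next group, tumour cells alone at 0 h. Lower in that order, co-culture macrophages at 6 h, those at 24 h and macrophages alone at 24 h did not overlap each other. For Dmwd every tumour cell group was above every macrophage group, and co-culture macrophages at 24 h were clear of macrophages alone at 24 h, the lowest. Kcnj2 and Tmem178 each stepped down between macrophages alone and those in co-culture and again between co-culture macrophages and tumour cells.

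Across the 18 macrophage libraries, log2 levels of Dmpk and Gpr84 had a Pearson correlation of 0.91, those of Dmpk and Dmwd 0.90 and those of Gpr84 and Dmwd 0.87. Within macrophages alone these were 0.97, 0.97 and 0.95 over 9 libraries and within co-culture 0.92, 0.83 and 0.76. Tmem178 and Kcnj2 correlated at 0.98 over 18 libraries, but at 0.56 and 0.62 within the cultures, so that their likeness lies mainly in the step between cultures. Gprc5c and Tmem178 went from 0.89 over all to -0.40 and -0.28 within cultures. The points share libraries, library number and depth, and the genes were chosen for like patterns.

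By the same measure over 9491 genes with a mean of at least 5 CPM, the genes most like Dmwd were Etv5 (0.937), C5ar1 (0.935) and Spred2 (0.934). C5ar1, the receptor for the complement fragment C5a, was at a mean of 643 CPM at 0 h and 276 CPM at 24 h alone and at 764 and 453 CPM in co-culture. Etv5, an ETS transcription factor, went from 103 to 30.3 CPM alone and from 88.8 to 64.0 CPM in co-culture. Most like Dmpk were Golim4 (0.950), Prkar2a (0.948) and Tnfrsf11a (0.939), which encodes the receptor RANK and went from 211 to 105 CPM alone and from 216 to 131 CPM in co-culture. Most like Gpr84 were Tpm3 (0.978), Set (0.972) and Pa2g4 (0.968).

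Tmem178 and Kcnj2 shared Pparg, the lipid-sensing nuclear receptor, as the most similar gene by Pearson correlation, at 0.984 and 0.981. By Spearman correlation it ranked 5th and 24th. Pparg was at 54.1 CPM at 0 h and 65.0 CPM at 24 h alone and at 21.8 and 23.2 CPM in co-culture, a smaller step than that of either gene. Atp6v1b2, a subunit of the vacuolar proton pump, was next for Tmem178, at 0.978. For Gprc5c the most similar were Anxa7 (0.961), Dock2 (0.959) and Cmbl (0.958).

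Genes related by function to the 6 were read from lists that leave out the 6 themselves. These lists were drawn up with earlier results of these data known, and called members are named by size of change. Their p-values come from the same libraries as the choice of the 6. The first list holds metabolite-sensing G protein-coupled receptors and also receptors for complement and formyl peptides (C5ar1, C3ar1, Fpr1 and Fpr2). Of its 22 members tested, 6 fell and 2 rose at 24 h in macrophages alone, beside the 15.2% of all genes called in either direction. Their median was -0.22 against 0.00 for all genes. In co-culture 3 fell and 2 rose, beside 11.4%, with a median of -0.03. C5ar1 fell by 1.22 ± 0.19 alone (adjusted p = 0.000717) and by 0.75 ± 0.18 in co-culture (0.0156). Between cultures at 24 h 9 were higher and 3 lower in co-culture, beside 28% of all genes, with a median of 0.46. Among them the purine receptors P2ry12 and P2ry13 rose by 2.51 ± 0.48 (adjusted p = 0.00114) and 1.75 ± 0.45 (0.00847), and Ffar4, a receptor for long-chain fatty acids, was at -2.67 ± 0.52 (0.00126).

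Of 21 inflammatory genes under NF-kB, the pathway that induces Gpr84, 3 fell and 0 rose at 24 h in macrophages alone, namely Cxcl2, Nlrp3 and Nfkbia, a share near the 15.2% of all genes called, with a list median of -0.52 against 0.00 for all genes. In co-culture 0 fell and 2 rose, beside 11.4% of all genes. Between cultures at 24 h 9 were higher and 0 lower in co-culture, beside 28% of all genes, with a median of 0.80 against -0.03 for all genes. Il1b was higher by 6.87 ± 1.92 (adjusted p = 0.0148), Cxcl10 by 2.93 ± 0.53 (0.000783) and Ccl2 by 2.89 ± 0.51 (0.000783). Their levels in co-culture macrophages at 24 h were 7.71, 8.69 and 231 CPM, against 0.0265, 23.4 and 84.8 CPM in the tumour cells of that culture.

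Of 5 genes of the Usp12 and Usp46 complex, to which relatives of Dmwd belong, 1 was called at 24 h in macrophages alone, near the 15.2% of all genes. Usp46 fell by 0.46 ± 0.15 (adjusted p = 0.0442), while Usp12 was at -0.15 and Wdr48 at 0.01, and the list median was -0.15 against 0.00 for all genes. In co-culture at 24 h 0 of the 5 were called.

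For the genes lower in co-culture, the related lists at 24 h were as follows. Of 12 osteoclast and fusion genes tested, 5 fell and 0 rose in co-culture against macrophages alone, beside 13.7% of all genes called lower and 28% called in either direction, with a median of -0.96 against -0.03 for all genes. Dcstamp, which is needed for fusion, fell by 3.20 ± 0.38 (adjusted p = 3.77e-05), and the proton pump subunit Atp6v0d2 by 1.73 ± 0.31 (0.000918). Of 24 store-operated calcium and NFAT genes, 2 fell and 5 rose, near the 28% of all genes called, with a median of 0.12. Among them the calcium pump Atp2a3 rose by 0.90 ± 0.12 and Nfatc2 by 0.53 ± 0.14 (0.0112). Nfatc4 also rose, by 3.92 to 2.26 CPM, and was at 54.9 CPM in the tumour cells of that culture.

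Of 10 other potassium channel genes, 0 fell and 2 rose in co-culture at 24 h, a share below the 28% of all genes. Kcna3, the voltage-gated Kv channel of leukocytes, rose by 2.71 ± 0.28 at 0 h (adjusted p = 1.59e-05) and by 2.12 at 24 h, opposite in sign to Kcnj2. Of the 2 other inward rectifiers tested, Kcnj5 rose at 0 h by 3.96 ± 0.85 (0.005) to 1.02 CPM. Kcnn4, the calcium-activated channel of macrophages, fell at 24 h after myelin by 1.00 ± 0.12 alone (0.0001) and by 1.04 in co-culture, while Kcnj2 stood at 0.30 ± 0.17 and 0.50 ± 0.17.

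Of the 2 GPRC5 genes tested beside Gprc5c, Gprc5b fell in co-culture by 1.27 ± 0.39 at 24 h (adjusted p = 0.0242) and rose at 24 h in macrophages alone by 1.37 ± 0.40 (0.0325). Gprc5a rose in co-culture by 2.42 ± 0.67 (0.0128) to 2.81 CPM, with 41.7 CPM in the tumour cells. Of 11 genes of retinoic acid metabolism, 2 fell and 5 rose in co-culture at 24 h, beside 28% of all genes. Crabp1, a cytosolic carrier of retinoic acid, was at 0 in macrophages alone, at 3.32, 2.6 and 11.0 CPM on average in co-culture macrophages at the 3 times and at 202 to 385 CPM in tumour cells. How much of such rises is tumour cell RNA was not tested gene by gene.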

How the data were processed

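RNA-seq counts per gene, as whole numbers, were taken from the table that the authors deposited, which holds 29883 genes by 36 libraries. The build is mm10, per the submitters' processing notes; the sources used here do not give the aligner, counter or strand setting. The 6 genes, the related lists and the added contrasts were chosen with earlier results of these data known.

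Each cell type was fitted on its own over its 18 libraries with edgeR 4.0.16 in R 4.3.3 (TMM factors, filterByExpr, robust quasi-likelihood test), with Benjamini-Hochberg adjustment over all genes tested at 0.05. The edgeR fit, without its low-count filter, was tried on simulated counts for 24 h against 0 h in macrophages alone. DESeq2, the block and the remaining alternatives were not tried on simulated counts. Other settings tried were RLE size factors, DESeq2 1.42.0, a non-robust fit, no low-count filter, a fit of only the groups compared, a block on the library number and leaving out each library. The genes named beside the 6 are the 3 with the highest Pearson correlation per gene over the 18 macrophage libraries, the neighbours within 100 kb, and called members of each list by size of change. Values by library number and correlations used log2 of CPM + 0.5. Lists of genes related to Dmpk are not reported here. The ratio of counts was compared by exact permutation. Gene spans and exon lengths come from GENCODE M21, and promoters from RefSeq, which held 5 of the 6 genes (none for Gprc5c).

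Whether equal library numbers pair libraries was judged by the correlation of their deviations from group means, with every pair above 0.1. By this measure, from the data and not the labels, they paired in all tumour cell comparisons (lowest correlation 0.411 to 0.667). In macrophages they paired for both time differences within each culture (0.157 to 0.418), for co-culture against macrophages alone at 0 h (0.288) and for the midpoint contrast in macrophages alone (0.286). They did not for co-culture against macrophages alone at 6 h (-0.020) and 24 h (0.066), nor in the remaining contrasts. At 7911378 to 15319104 counts per library, 3 counts correspond to about 0.2 to 0.4 CPM. The upper limits given for a count of 0 were set at 3 counts and cover counting error only.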

Additional observations from a re-analysis of the deposited data

Results flagged for a closer look

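For Dmpk and Dmwd, every library number was lower at 24 h than at 0 h in macrophages and higher in tumour cells, in both cultures. The difference between cell types was not tested. In the edgeR fit over all 18 tumour cell libraries without a block, neither gene was called (adjusted p = 0.0648 and 0.149 for Dmpk, 0.814 and 0.476 for Dmwd, alone and in co-culture). With the library number as a block in edgeR, Dmpk passed in both cultures (adjusted p = 0.027 and 0.0424). For Dmpk the mean log2 change of CPM + 0.5 was -3.68 in macrophages alone against 0.57 in tumour cells alone, and -1.57 against 0.62 in co-culture. For Dmwd it was -3.26 against 0.04 in cells alone and -0.90 against 0.18 in co-culture. The macrophage side of both was part of how the genes were chosen, and the tumour cell values of Dmwd differ little from 0.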

How the results depend on the processing

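Among the changes of the 6 genes that were tested, 467 values under an alternative stayed on the same side of the threshold, 8 gained a call (all in tumour cells) and 5 lost it (all Kcnj2 at 24 h over both cultures). Of those only described, 1149 moved by less than the spread between libraries and 6 by more, all of Dmpk or Dmwd. By Spearman correlation the most similar gene left the first 3 for 5 of the 6 genes. Low counts limit Gpr84, Dmpk and Dmwd in macrophages alone at 24 h, and library number 1 was the lowest of its group for all 3 there. Counts of genes called over the whole table moved more; why was not tested.

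DESeq2 called 596 genes at 6 h in macrophages alone where edgeR called 283, and 279 in place of 28 in co-culture. In tumour cells it called 34 in place of 1 and 24 in place of 2 at 6 h alone and in co-culture, 429 in place of 107 at 24 h in co-culture, and 13 and 436 in place of 0 and 11 between cultures at 0 h and 24 h. For the difference between cultures in macrophages it called 1 in place of 0 at 6 h and 61 in place of 2 at 24 h, and for the midpoint contrast 966 alone and 475 in co-culture, in each over 1.5 times edgeR's count. Without the low-count filter, 842 in place of 1424 were called in tumour cells alone at 24 h and 1 in place of 2 at 6 h in co-culture; the non-robust fit called 7 in place of 11 between cultures at 24 h.

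With only the groups compared, macrophages gave 17 and 1061 (6 h, 24 h) alone, the latter in place of 1998, 56 at 6 h in co-culture and 741 in place of 1308 between cultures at 6 h. Tumour cells gave 0 at 6 h in both cultures, 0 at 24 h in co-culture and 0 between cultures at 24 h. The difference between cultures at 24 h gave 0, and the midpoint 10 alone and 384 in co-culture.

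With the library number as a block, macrophages gave 668 and 236 at 6 h alone and in co-culture, 2598 in place of 1502 at 24 h in co-culture and 2053 between cultures at 6 h. Tumour cells gave 35 and 3793 (6 h, 24 h) alone, 28 and 1263 in co-culture, and 162, 5 and 833 between cultures at 0, 6 and 24 h. The difference between cultures at 24 h gave 25, the mean of both cultures at 6 h 1884 in place of 1121, and the midpoint 1323 and 713. The block changed the calls of Dmpk, Kcnj2 and Gpr84 in tumour cells that the report gives, and no other tested call of the 6 genes. Without library number 1 of every group, chosen after seeing the data, macrophages gave 766 and 112 at 6 h, 8 for the difference at 6 h, and 1198 and 280 for the midpoint.

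Leaving out 1 library at a time, macrophages gave 25 to 547 (6 h) and 772 to 2315 (24 h) alone, 0 to 8 and 664 to 1385 in co-culture, and 1020 to 1473, 856 to 1189 and 2472 to 4079 between cultures at 0, 6 and 24 h. Tumour cells gave 0 to 2 and 537 to 1041 alone, 0 to 4 and 0 to 621 in co-culture, and 0 to 0, 0 to 0 and 0 to 478 between cultures. The difference between cultures gave 0 to 1 and 0 to 21 at 6 h and 24 h, the mean of both cultures 586 to 1476 and 2658 to 3800, the midpoint 45 to 1307 and 4 to 112, and co-culture against macrophages alone over 0 h and 24 h 3969 to 4969.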
